A study of Homo sapiens with 6 samples.

Results

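The cyclins, the cyclin-dependent kinases (CDKs) and the E2F and RB proteins that time cell division were followed in MCF-12A cells exposed to a fatty acid. Members were taken by gene symbol from the deposited count table: the cyclin symbols CCNA to CCNL, CCNT and CCNY without CCNG1, the numbered CDKs, E2F1 to E2F8, their DP partners, RB1, RBL1 and RBL2, the CDC25 phosphatases, WEE1 and PKMYT1, SKP2 and the CKS docking subunits, the CDK inhibitors CDKN1B, CDKN1C, CDKN2C, CDKN2D and CDKN3, and FOXM1, MYBL1, MYBL2 and 4 LIN subunits of the MuvB complex. This gave 76 of the 14803 genes in the table, and all 76 were abundant enough to be tested. CDKN2A, CDKN2B and CDK3 were not analysed here. MCF-12A is a non-tumorigenic, spontaneously immortalized human breast epithelial line, so every library came from 1 line. It was grown in mammary epithelial medium and received for 24 h either octanoate (OA; the sodium salt of a medium-chain saturated fatty acid, dissolved in phosphate-buffered saline) or vehicle, with 3 libraries per group and no genetic change in either group.

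Cyclins are regulatory subunits that switch CDKs on. D-type cyclins with CDK4 or CDK6, and then E-type cyclins with CDK2, phosphorylate the RB proteins, which releases the E2F factors from repression so that genes for DNA synthesis are transcribed. Later in the cycle, A- and B-type cyclins with CDK1 drive mitosis, and the MuvB complex joins B-MYB (MYBL2) and FOXM1 to transcribe the mitotic genes, whereas in resting cells the same complex joins E2F4, E2F5 and RBL1 or RBL2 and represses them. Among the CDKs are also kinases that phosphorylate RNA polymerase II and have no direct part in the division clock.

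Library totals ran from 47508208 to 49585010 counts in OA and from 43049972 to 59935521 in vehicle, and the first principal component, which separated the groups, held 96.1% of the variance. Whether replicate libraries stem from different cultures is not stated, and the p-values therefore reflect only how much these libraries varied, which may be technical. All 8 markers checked for mammary epithelium, which include the luminal genes KRT18 and EPCAM, were detected, summing to 4400 to 4567 CPM (counts relative to the scaled library total) in OA and 7787 to 8032 CPM in vehicle. They did not move together: KRT5, KRT14, TP63, ITGA6 and KRT18 were lower (log2 fold changes -2.22 to -0.45) and KRT17, CDH1 and EPCAM higher (0.60 to 0.92). The estrogen receptor gene ESR1 was near the floor in both groups and lower in OA. It had 0.405 to 0.922 CPM in OA and 1.50 to 1.87 CPM in vehicle (log2 fold change -1.35, SE 0.232). Markers of other cell types were not all at 0. The 13 hepatocyte markers in the table summed to 12.7, 31.3 and 96.6 CPM in OA replicates 1 to 3. In vehicle replicates 1 to 3 they summed to 6.59, 11.5 and 9.79 CPM. SERPINA1 alone gave 10.7, 10.9 and 12.7 CPM of these sums in OA and 5.83, 6.46 and 6.71 CPM in vehicle. The albumin gene ALB was at 0.590, 10.5 and 46.6 CPM in OA against 0.241, 2.42 and 1.53 CPM in vehicle. The 4 fibroblast markers in the table summed to 105 to 108 CPM in OA and 61.4 to 76.5 CPM in vehicle, the 2 leukocyte markers (CD14 and CD68) to 60.5 to 63.0 CPM in OA and 22.5 to 24.8 CPM in vehicle, and the 2 endothelial markers to 4.19 to 4.79 CPM in OA and 5.48 to 6.76 CPM in vehicle. Their part in the results below was not tested. In bulk libraries, fewer cells at a stage of the cycle and less RNA per cell cannot be told apart.

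Of the 76 members, 49 were lower and 20 higher in OA and 7 did not pass (false discovery rate 0.01), by the quasi-likelihood test of edgeR (two-sided), with p-values adjusted by Benjamini-Hochberg over all 14785 genes tested. The background is high in this comparison: 84.5% of all tested genes were called, 41.1% lower and 43.3% higher. The counts of members are to be read against these shares. More than 2-fold lower were 30 of the 76 members, against 12.3% of all tested genes, and 9 were more than 8-fold lower, against 0.683%. Higher by more than 2-fold were 9 members, against 22.3% of all tested genes. The libraries of the groups did not overlap for 70 members, a state shared by 88.8% of all tested genes. The median log2 fold change over members was -0.63, beside 0.03 over all tested genes. Changes are given relative to that scaling (trimmed mean of M values, TMM). With library totals as the only scaling, every log2 fold change moved up, the median of all genes by 0.286, and higher genes made up 65.4% of all calls in place of 51.3%. Members then had a median of -0.35, with 40 lower and 27 higher. Small changes are therefore given with their value under that scaling where the direction or the call turned.

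**Figure D1:**
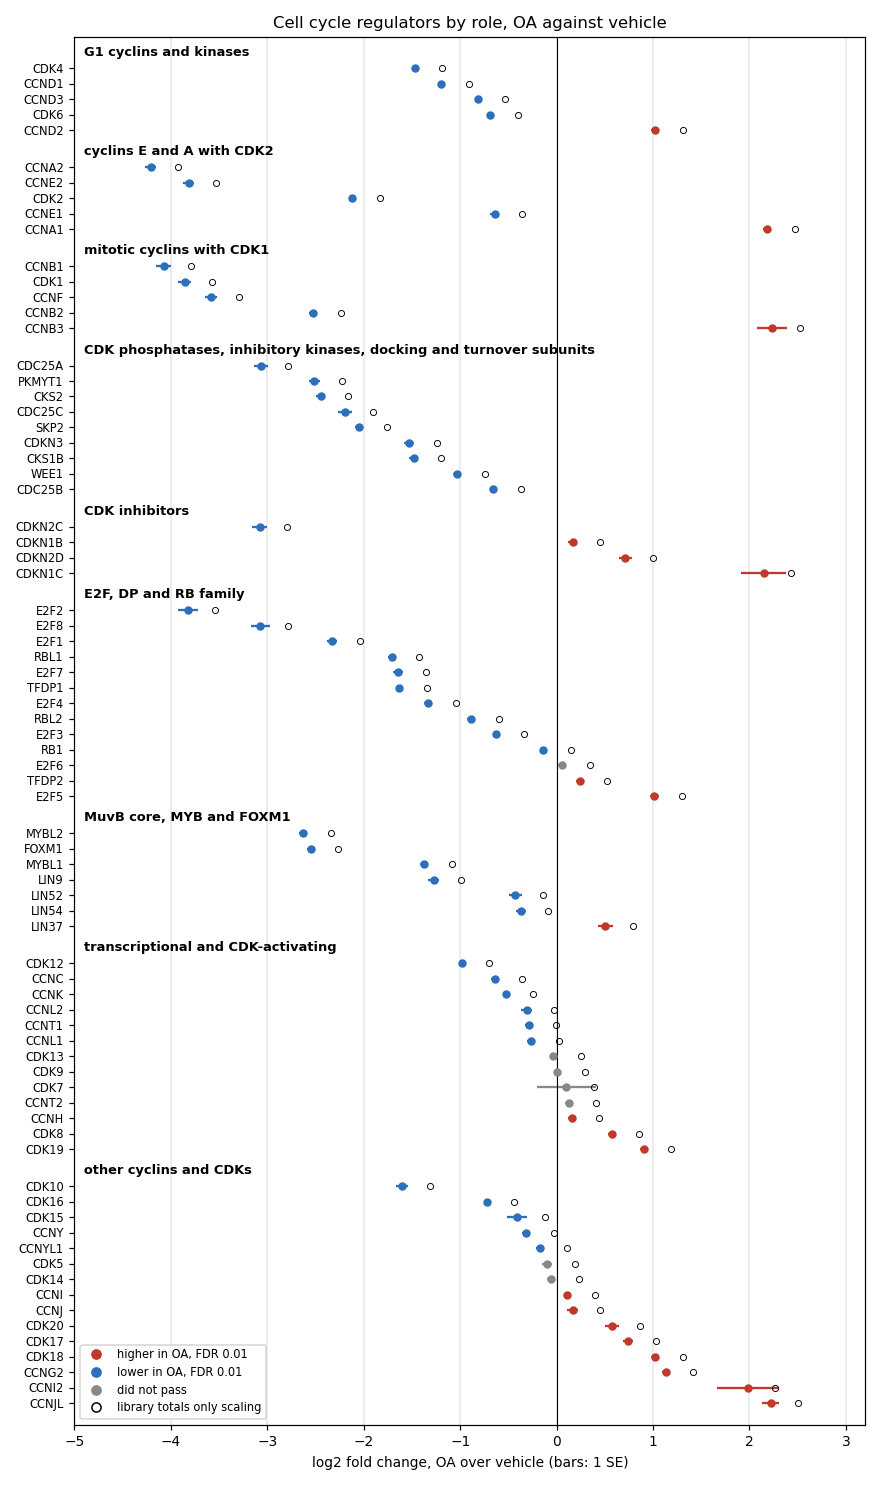
Log2 fold change (OA over vehicle, horizontal axis) of the 76 members, grouped by role; filled points are TMM-scaled estimates with bars of 1 SE from 3 libraries per group, red for higher and blue for lower in OA (false discovery rate 0.01) and grey for not passing, and open circles are the estimates with library totals only. The values run from -4.21 for CCNA2 to 2.23 for CCNB3, and the open circles of RB1, CCNL1, CCNYL1, CDK13, CDK14 and CDK5 lie on the other side of 0 from their filled points.

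Among the G1 cyclins and their kinases, 4 of 5 were lower and CCND2 was higher in OA. CCND1, which encodes cyclin D1, the sensor of growth signals, stood at 189, 195 and 197 CPM in OA and at 439, 442 and 448 CPM in vehicle. Every OA library was thus under every vehicle library, with a log2 fold change of -1.19 (SE 0.028). CCND2, its paralog, showed the reverse order, with 75.3, 67.5 and 70.0 CPM in OA and 34.6, 35.6 and 34.7 CPM in vehicle (log2 fold change 1.02, SE 0.042). CCND3 fell by 0.82 on the log2 scale. CDK4, the kinase that D-type cyclins activate, had 55.4, 56.7 and 58.9 CPM in OA and 161, 157 and 156 CPM in vehicle (log2 fold change -1.47, SE 0.033), and its close relative CDK6 fell by 0.69. Divided by gene length, so that genes can be set side by side, the D-type cyclins summed to 83.7 ± 0.81 CPM per kb in OA and 157 ± 0.24 in vehicle (SD, n = 3 each). CCND2 made up 13% ± 0.80 of that sum in OA and 3.40% ± 0.062 in vehicle, and CCND1 stayed the most abundant of the 3 in both groups.

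**Figure D2:**
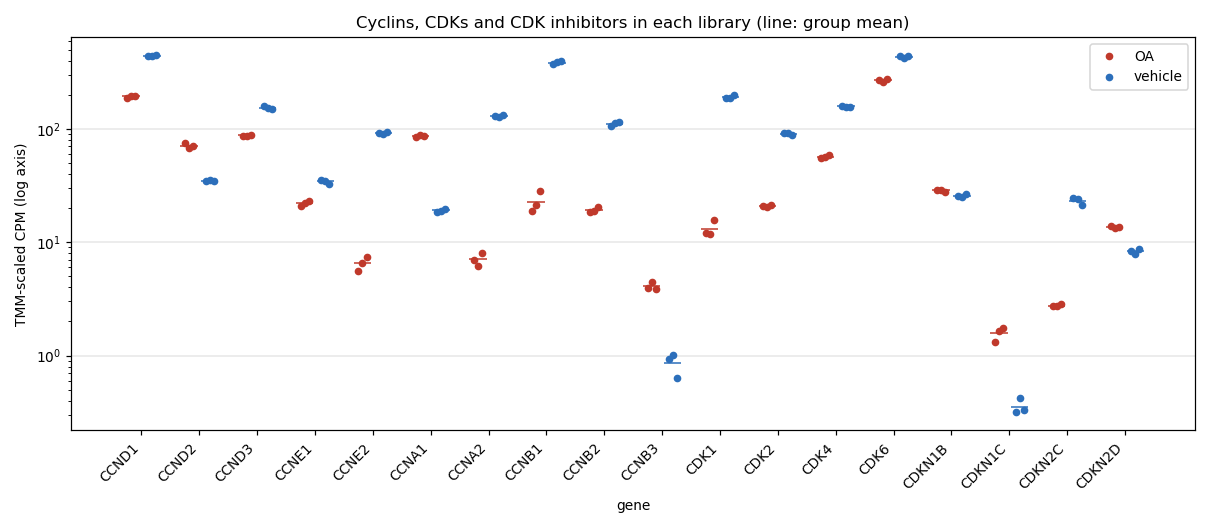
TMM-scaled CPM on a log axis for 18 cyclins, CDKs and CDK inhibitors in each library, OA (red) to the left of vehicle (blue), with a line at each group mean. The points of each group lie close together, and for all 18 genes the groups do not overlap; CCND2, CCNA1, CCNB3, CDKN1B, CDKN1C and CDKN2D are the genes whose OA points lie above vehicle.

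At the start of S phase, 4 of the 5 genes of the E- and A-type cyclins with CDK2 were lower and CCNA1 was higher. CCNA2, the cyclin A of dividing somatic cells (hg38, chr4:121816444-121824001), had 7.02, 6.15 and 7.97 CPM in OA and 129.9, 128 and 132 CPM in vehicle. No other member fell as far, at a log2 fold change of -4.21 (SE 0.055, adjusted p = 3.27e-22 by edgeR). CCNE2, an activator of CDK2, was likewise at 5.60, 6.59 and 7.43 CPM in OA and 91.8, 90.5 and 94.0 CPM in vehicle (log2 fold change -3.82, SE 0.060). Its paralog CCNE1 moved much less, with 20.9, 22.3 and 22.9 CPM in OA and 35.5, 35.0 and 32.6 CPM in vehicle (log2 fold change -0.64, SE 0.049). CDK2 fell by 2.12 on the log2 scale (SE 0.037).

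CCNA1 encodes the cyclin A known mainly from the germ line, where it is needed for meiosis in mice. It reached 85.3, 88.2 and 86.2 CPM in OA against 18.6, 18.8 and 19.7 CPM in vehicle, a log2 fold change of 2.19 (SE 0.040). The order of the paralogs was thus reversed. CCNA1 was 93.9% ± 0.81 of the A-type cyclin level per kb in OA and 15.4% ± 0.27 in vehicle (SD, n = 3 each), while the summed level was 40.1 ± 0.51 CPM per kb in OA and 53.7 ± 0.93 in vehicle. Within the E-type pair, CCNE1 made up 82.5% ± 1.3 of the level per kb in OA and 34.2% ± 1.4 in vehicle. A 3-against-3 design cannot give an exact two-sided permutation p for such a share below 0.1. Both shares reached that value, as did every other family share and sum, so the test does not set them apart.

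**Figure D3:**
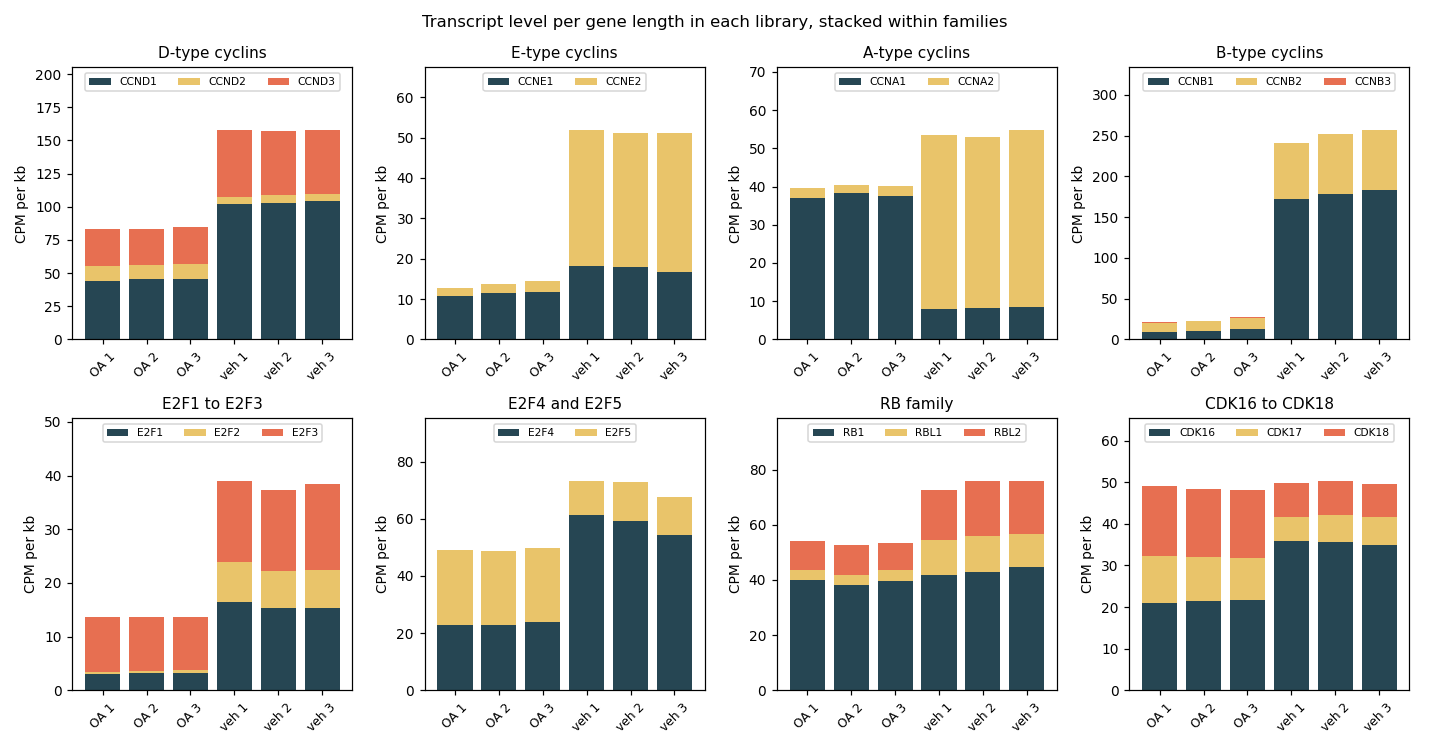
TMM-scaled CPM per kb of gene length in each library, stacked within 8 families, with the 3 OA libraries left of the 3 vehicle (veh) libraries. The A-type bars are almost wholly CCNA1 in OA and mostly CCNA2 in vehicle, the E-type bars are mostly CCNE1 in OA and mostly CCNE2 in vehicle, and the CDK16 to CDK18 bars have nearly the same height in both groups with a smaller CDK16 part in OA.

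The mitotic cyclins and CDK1 had the lowest median of any role group, -3.58, with 4 of 5 lower. CCNB1, the principal mitotic cyclin, had 18.8, 21.5 and 28.3 CPM in OA and 372, 387 and 396 CPM in vehicle (log2 fold change -4.08, SE 0.080). CDK1, the kinase it activates, had 12.1, 11.8 and 15.7 CPM in OA and 188, 188 and 198 CPM in vehicle (log2 fold change -3.86, SE 0.063). In both genes OA replicate 3 was the highest OA library, still far below vehicle. CCNF, the F-box subunit that targets proteins for destruction in G2, fell by 3.58 on the log2 scale, and CCNB2 fell by 2.53. CCNB3, a cyclin best known from meiosis, rose to 3.92, 4.49 and 3.90 CPM in OA, against 0.926, 1.01 and 0.638 CPM in vehicle (log2 fold change 2.23, SE 0.156). It remained a small part of the B-type level per kb, 3.85% ± 0.59 in OA and 0.0766% ± 0.019 in vehicle, and the B-type sum was 23.9 ± 2.9 CPM per kb in OA and 250 ± 8.1 in vehicle.

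All 9 genes that set CDK phosphorylation, docking or inhibitor turnover were lower (median log2 fold change -2.05). Both the activating and the inhibiting arms fell. CDC25A, a phosphatase that removes inhibitory phosphate from CDKs, had 7.02, 7.39 and 9.54 CPM in OA and 69.8, 63.9 and 66.4 CPM in vehicle (log2 fold change -3.07, SE 0.071). PKMYT1, the membrane-bound kinase that adds such phosphate to CDK1, had 16.0, 15.9 and 17.5 CPM in OA and 100.4, 96.0 and 85.3 CPM in vehicle (log2 fold change -2.51, SE 0.056). WEE1, the nuclear kinase with the same task, fell by 1.03. CKS2, a docking subunit of the CDK complexes, had 20.6, 21.8 and 23.5 CPM in OA and 121, 117 and 121 CPM in vehicle (log2 fold change -2.45, SE 0.042). Per kb it was the most abundant of the 76 members in vehicle, at 195 CPM per kb, and ranked 8 in OA, at 35.7. SKP2, the F-box protein that marks the inhibitor encoded by CDKN1B for degradation, fell by 2.05 (SE 0.039). CDC25C (-2.19), CDKN3 (-1.53), CKS1B (-1.48) and CDC25B (-0.66) completed the group. CDC25B, the mildest of the 3 phosphatases, made up 91.1% ± 0.89 of their level per kb in OA and 70.6% ± 0.41 in vehicle.

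The CDK inhibitors did not move together: 3 rose and CDKN2C fell. CDKN2C, an INK4-type inhibitor of CDK4 and CDK6, had 2.73, 2.74 and 2.82 CPM in OA and 24.6, 23.9 and 21.4 CPM in vehicle (log2 fold change -3.08, SE 0.079). CDKN2D, of the same type, had 13.8, 13.4 and 13.7 CPM in OA and 8.32, 7.93 and 8.75 CPM in vehicle (log2 fold change 0.71, SE 0.067). The 2 relatives thus went in opposite directions without overlap. CDKN1C, a Kip-type inhibitor and imprinted gene (hg38, chr11:2883218-2885765), was higher at 1.31, 1.66 and 1.77 CPM in OA against 0.315, 0.419 and 0.332 CPM in vehicle (log2 fold change 2.15, SE 0.231, adjusted p = 3.38e-08 by edgeR). It rests on few reads, 71, 91 and 92 counts in OA and 17, 19 and 13 in vehicle. Some of its exons also lie on an alternate contig, as for 183 genes of the table, and reads that mapped to several places had been excluded before counting. CDKN1B had 28.8, 29.2 and 28.0 CPM in OA and 25.4, 24.9 and 26.5 CPM in vehicle. That rise, 0.17 on the log2 scale, passed with an adjusted p of 0.00196 by edgeR, but missed the threshold with DESeq2 (0.0106), without OA replicate 2 (0.0127) and without vehicle replicate 2 (0.0151).

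In the E2F, DP and RB group, 10 of 13 genes were lower, 2 higher and E2F6 did not pass (median log2 fold change -1.33). E2F1, an activator of S-phase genes (hg38, chr20:33675486-33686404), had 8.27, 8.58 and 8.49 CPM in OA and 44.2, 41.5 and 41.2 CPM in vehicle (log2 fold change -2.33, SE 0.051, adjusted p = 3.71e-19 by edgeR). E2F2, an activator too, had 1.82, 2.70 and 3.38 CPM in OA and 39.0, 35.6 and 37 CPM in vehicle (log2 fold change -3.82, SE 0.102). The third activator, E2F3, fell by only 0.62. E2F3 was thus 73.3% ± 1.4 of the activator level per kb in OA and 40.3% ± 1.5 in vehicle, of a sum of 13.6 ± 0.030 CPM per kb in OA and 38.2 ± 0.80 in vehicle (SD, n = 3 each). The atypical repressors that close S phase were lower as well, E2F8 by 3.07 and E2F7 by 1.64.

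The repressor E2Fs parted. E2F4 fell by 1.33 on the log2 scale (SE 0.041). E2F5 rose, with 48.7, 48.3 and 48.1 CPM in OA and 21.9, 25.6 and 24.6 CPM in vehicle (log2 fold change 1.01, SE 0.049). Per kb, E2F5 was 52.9% ± 0.77 of the pair in OA and 18.2% ± 1.9 in vehicle. The DP subunits, without which E2F1 to E2F6 bind DNA poorly, parted in the same manner. TFDP1 had 128, 133 and 138 CPM in OA and 416, 410 and 411 CPM in vehicle (log2 fold change -1.63, SE 0.031), and TFDP2 rose by 0.24 (SE 0.039). TFDP1 was still the larger part of the DP level per kb, 89.1% ± 0.60 in OA and 96.7% ± 0.086 in vehicle.

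Of the RB family, RBL1 had 23.2, 22.8 and 25.4 CPM in OA and 78.1, 79.9 and 75.0 CPM in vehicle (log2 fold change -1.71, SE 0.044), and RBL2 fell by 0.89. RB1, the retinoblastoma gene, was close to level, with 191, 182 and 188 CPM in OA and 199, 205 and 213 CPM in vehicle. Its log2 fold change of -0.14 (SE 0.031) became 0.09 under upper quartile scaling and 0.15 with library totals only, so its direction depends on the scaling. RB1 made up 73.5% ± 0.83 of the family level per kb in OA and 57.7% ± 1.1 in vehicle. E2F6 had a log2 fold change of 0.06 (SE 0.045, adjusted p = 0.245 by edgeR), and 0.34 with library totals only, where it passed.

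In the group of MuvB, MYB and FOXM1, 6 of 7 genes were lower, with a median of -1.27. The falls were led by the factors that join MuvB to activate mitotic genes. MYBL2 (B-MYB) had 38.4, 42.0 and 44.2 CPM in OA and 257, 261 and 252 CPM in vehicle (log2 fold change -2.63, SE 0.040). FOXM1 had 25.7, 26.0 and 28.3 CPM in OA and 156, 156 and 155 CPM in vehicle (log2 fold change -2.55, SE 0.038). MYBL1 fell by 1.37 and LIN9, a MuvB subunit, by 1.27. The other LIN subunits moved less and not in 1 direction: LIN52 fell by 0.43, LIN54, which binds DNA, by 0.37, and LIN37 rose by 0.51 (SE 0.079). LIN54 missed the threshold with upper quartile scaling (-0.14), and with library totals only LIN52 (-0.14) and LIN54 (-0.09) both did.

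Since E2F and MuvB act through short DNA sites, the promoters of the members were searched for them, from 250 bases before to 50 bases after each RefSeq start (GRCh38.p14), on both strands. An entry was found for 65 of the 76 members; CCND1, CCND2, CCNE2, CDK2, PKMYT1, WEE1, CDKN1C, E2F5, E2F8, FOXM1 and MYBL1 had no match. The E2F site was searched as TTTCCCGC or TTTGGCGC, and the cell cycle homology region (CHR), to which LIN54 binds, as TTTGAA or TTCGAA. An E2F site was present for 7 members (10.8%), against 2.75% of all 27305 genes with an entry and 4.5% of those tested here. These members were E2F2, CDC25A, E2F1, RBL1, E2F3, LIN52 and CDK19. The following 30-base stretches show the site, in capitals, in the 4 members that fell most and in CDK19, the only holder that rose; each is read 5′ to 3′ along the gene.
E2F2: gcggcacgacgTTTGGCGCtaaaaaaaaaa
CDC25A: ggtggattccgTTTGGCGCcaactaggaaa
E2F1: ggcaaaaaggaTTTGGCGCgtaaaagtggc
RBL1: ttttcgcgcgcTTTGGCGCaggtggttgtg
CDK19: accaatcaagaGCGGGAAAgaagccaaagc
They lie at chr1:23531257-23531286 (minus strand), chr3:48188443-48188472 (minus), chr20:33686387-33686416 (minus), chr20:37095995-37096024 (minus) and chr6:110815982-110816011 (minus). E2F2, CDC25A, E2F1 and RBL1 carry the same 8 letters, at offsets of -44 to -16 from the start, whereas CDK19 carries the other form in reverse complement, at -145. The 7 members with a site in a searched spelling had a median log2 fold change of -1.71, and the other matched members of -0.34. E2F sites in other spellings were not searched, so the latter are not known to lack one. Among all tested genes with a site so searched, 58.1% were lower. Their median log2 fold change was -0.38, beside 0.0153 for tested genes without a match.

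A CHR was present for 18 members (27.7%), against 19.5% of all genes with an entry and 15.6% of those tested here, so these short letters are common. An arrangement known from cell cycle promoters was searched only as GGCGG or GCGCG ending 4 bases before a CHR on the same strand. In these spellings it was found for CKS1B and CDC25C, 3.08% of members against 0.0989% of all genes and 0.172% of those tested. Other spellings were not searched, among them CGCGG, which ends 4 bases before the CHR of the CDK1 stretch below. Within 30 bases of the start, a CHR was found in CKS1B, CDC25C, CDK1, CCNB2, CKS2, LIN9, RBL2, CCNI and TFDP2. It is shown in capitals for the 5 of them that fell most and for CCNI and TFDP2, which rose.
CDK1: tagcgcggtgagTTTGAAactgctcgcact
CCNB2: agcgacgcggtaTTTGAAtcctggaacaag
CKS2: cgggctgtcggaTTCAAAtccggatcgttg
CDC25C: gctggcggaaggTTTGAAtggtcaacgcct
CKS1B: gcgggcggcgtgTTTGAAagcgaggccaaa
CCNI: aaataactggaaTTTGAAaggaggacagag
TFDP2: agttattacaggTTCAAAaagccccgacca
The stretches lie at chr10:60778453-60778482 (plus strand), chr15:59105105-59105134 (plus), chr9:89311154-89311183 (plus), chr5:138331817-138331846 (minus), chr1:154974639-154974668 (plus), chr4:77074881-77074910 (minus) and chr3:142029192-142029221 (minus), and in CKS2 and TFDP2 the CHR is on the opposite strand. Of the 18 holders 13 were lower and 5 higher, with CCNJL (2.22) among those that rose. Among all tested genes with a CHR, 44.7% were lower, close to the 41.1% of all tested genes. Their median log2 fold change was -0.0139, beside 0.00111 for tested genes without a CHR. The CCAAT box (CCAAT) was present for 52.3% of members, 39.7% of all genes with an entry and 42.6% of those tested. These matches describe the letters and are not measured binding.

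Genes that E2F and MuvB are known to act on were counted as well. Every member of both lists was lower, against 41.1% of all tested genes. Both lists were chosen with earlier results of these data known, so the counts are a description and not an independent check. The 28 S-phase E2F targets had a median log2 fold change of -2.37, with a range of -4.04 to -1.06. MCM3, a subunit of the replicative helicase, had 42.8, 42.5 and 46.5 CPM in OA and 314, 319 and 314 CPM in vehicle (log2 fold change -2.85, SE 0.035). MCM7, of the same helicase, fell by 2.49. The 26 G2/M genes bound by MuvB, B-MYB and FOXM1 had a median of -3.53. Of these, 20 were more than 8-fold lower, against 0.683% of all tested genes. BUB1, a spindle checkpoint kinase, had 14.1, 14.2 and 16.1 CPM in OA and 182, 186 and 190 CPM in vehicle (log2 fold change -3.65, SE 0.044). BIRC5, which encodes survivin of the chromosomal passenger complex, fell by 3.65, and CDC20, an activator of the anaphase-promoting complex, by 2.66.

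**Figure D4:**
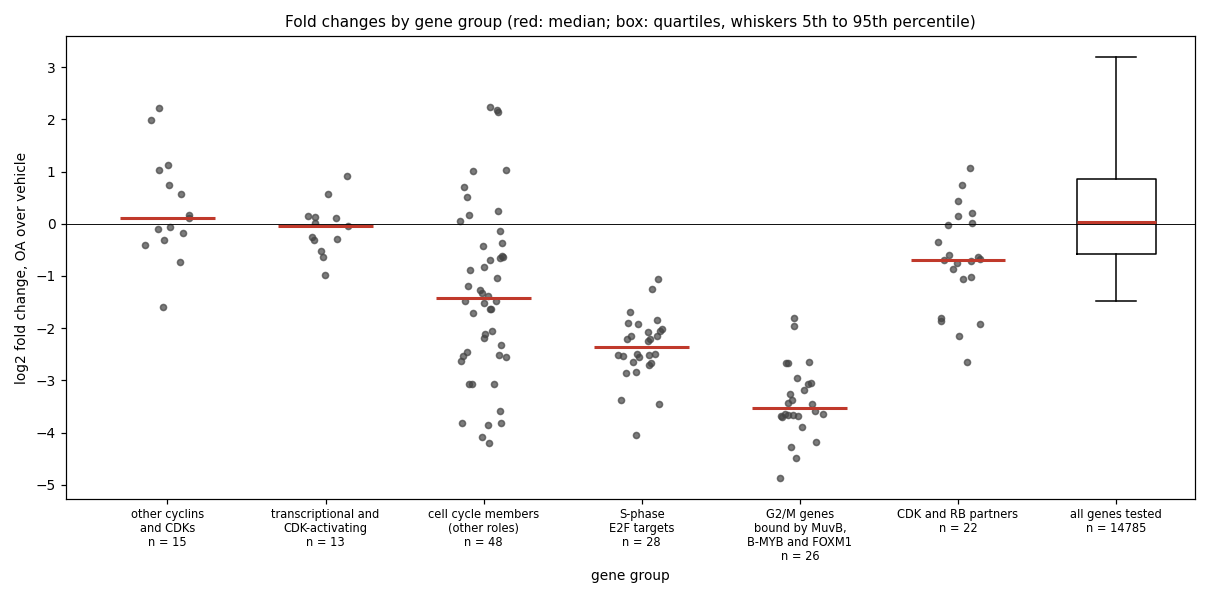
Log2 fold change (OA over vehicle, vertical axis) of single genes by group, with the group median in red; the box on the right gives the quartiles of all 14785 tested genes, with whiskers from the 5th to the 95th percentile. The 28 S-phase targets (median -2.37) and the 26 G2/M genes (median -3.53) all lie below 0, the transcriptional and other cyclins and CDKs lie around 0, and the 22 partners have a median of -0.69.

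The partners of these proteins were mixed, with 15 of 22 lower, 5 higher, 2 not passing and a median of -0.69. RBBP4, a histone-binding subunit of MuvB, fell by 1.86 (SE 0.030). PCNA, the replication clamp, which is also among the S-phase targets, fell by 2.15. FBXO5, an inhibitor of the anaphase-promoting complex, fell by 2.65. Of those that rose, CDKN1A, a Kip-type CDK inhibitor outside the 76 members, was named after its values were seen. It stood at 1222, 1297 and 1228 CPM in OA and 614, 599 and 574 CPM in vehicle (log2 fold change 1.07, SE 0.031). The further risers were CCNDBP1, MED12, MED13 and FBXW7, and MNAT1 and CDK5R1 did not pass. With library totals only, 14 partners were lower and 7 higher.

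The transcriptional and CDK-activating members were centred near 0, with a median of -0.03, 6 lower, 3 higher and 4 not passing, and none changed by more than 2-fold. CDK12, which phosphorylates the tail of elongating RNA polymerase II, had 115, 116 and 117 CPM in OA and 234, 230.1 and 224 CPM in vehicle (log2 fold change -0.99, SE 0.029), and its partner cyclin gene CCNK fell by 0.53 (SE 0.032). CDK13, a close relative of CDK12, did not pass (log2 fold change -0.03, SE 0.033, adjusted p = 0.329 by edgeR), and was at 0.25, past the threshold, with library totals only. In the kinase module of Mediator, both kinases rose while their cyclin fell. CDK19 had 59.0, 61.8 and 56.2 CPM in OA and 31.9, 31.5 and 31.0 CPM in vehicle (log2 fold change 0.91, SE 0.042), CDK8 rose by 0.57 (SE 0.038), and CCNC fell by 0.64 (SE 0.035). Summed per kb, CDK8 and CDK19 were at 29.3 ± 0.36 CPM per kb in OA and 18.4 ± 0.47 in vehicle.

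Splicing-linked and elongation cyclins changed little, and their calls depended on the scaling. CCNL1 (-0.26), CCNL2 (-0.31) and CCNT1 (-0.29) were lower, but none of the 3 was called with library totals only (0.02, -0.03 and -0.0048) or with upper quartile scaling. CDK9, the elongation kinase that T-type cyclins activate, had a log2 fold change of 0.0049 (SE 0.034) and did not pass, but was called higher with upper quartile scaling (0.23) and with library totals only (0.29). CCNT2 had a log2 fold change of 0.13 (SE 0.044) and just missed the threshold (adjusted p = 0.0108 by edgeR). It passed in 7 of 16 alternatives: library totals only (0.41), upper quartile scaling (0.36), the filter of at least 1 CPM, the likelihood ratio test (adjusted p = 0.00725 by edgeR), a false discovery rate of 0.05, and the omission of OA replicate 2 or of vehicle replicate 3. CCNH, the cyclin of the CDK-activating kinase, rose by 0.16, and missed the threshold without OA replicate 1 (adjusted p = 0.0131 by edgeR) or vehicle replicate 1 (0.0106). With library totals only, the group had 6 higher and 3 lower. CDK7, the kinase that CCNH joins, had 25, 25 and 15 counts in OA and 21, 14 and 17 in vehicle, ranking 76 of 76 in OA and 74 in vehicle by level per kb. Its log2 fold change of 0.10 (SE 0.304) did not pass and rests on these few reads. Exons of CDK7 also lie on an alternate contig, as with CDKN1C; the part of this in its count was not tested.

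The 15 other cyclins and CDKs had a median of 0.11, with 8 higher, 5 lower and 2 not passing. CCNG2, an atypical cyclin linked to cell cycle exit, had 122, 120.2 and 111 CPM in OA and 51.6, 55.1 and 54.3 CPM in vehicle (log2 fold change 1.13, SE 0.039). CCNJL, a cyclin of little-known role, had 16.5, 16.5 and 15.7 CPM in OA and 3.11, 3.37 and 4.08 CPM in vehicle (log2 fold change 2.22, SE 0.086). Both were higher in every OA library. CDK18, a PCTAIRE-type kinase, rose by 1.02 (SE 0.039), CDK17 of the same type by 0.74, and CDK16, the third, fell by 0.72 (SE 0.030). These changes nearly cancelled in the sum, 48.6 ± 0.46 CPM per kb in OA and 49.9 ± 0.32 in vehicle, of which CDK16 was 44.1% ± 1.2 in OA and 70.9% ± 0.78 in vehicle.

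Of the rest of that group, CDK10 fell by 1.60 (SE 0.066), with 9.86, 9.36 and 8.53 CPM in OA and 30.2, 26.0 and 28.0 CPM in vehicle. CCNY, a membrane-tethered cyclin that activates CDK14 and CDK16, fell by 0.32, CDK15 by 0.41 and CCNYL1 by 0.17. None of these 3 calls held with library totals only, where CCNY was at -0.03, CDK15 at -0.13 and CCNYL1 at 0.11. CDK20 rose by 0.58. CCNI2 had a log2 fold change of 1.98 (SE 0.321) but 31 to 46 counts in OA and 7 to 9 in vehicle. CCNI rose by 0.11, and was per kb the most abundant member in OA, at 108 CPM per kb, and ranked 6 in vehicle, at 100.1. Its call was lost without OA replicate 2 (adjusted p = 0.0194 by edgeR), vehicle replicate 1 (0.0111) or vehicle replicate 3 (0.0112). CCNJ (0.17) was at the threshold, with an adjusted p of 0.00978 by edgeR, and missed it in 9 of 16 alternatives, among them the omission of any OA library or of vehicle replicate 2 or 3. CDK5 (-0.10) and CDK14 (-0.06) did not pass, and were at 0.19 and 0.23, past the threshold, with library totals only.

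Exons of 12 members overlap those of another gene on the opposite strand. No source used here says whether counting respected strand, so reads from the stretch that such a pair shares cannot be told apart. The members with their partners are CCNA2 with EXOSC9, CCNE2 with INTS8, CDK4 with TSPAN31, CDK6 with LOC101927497, E2F5 with C8orf59, RBL2 with AKTIP, FOXM1 with ITFG2, PKMYT1 with PAQR4, CDC25C with FAM53C, CCNK with CCDC85C, CDK10 with SPATA2L and CCNI2 with SEPT8. The longest shared stretch ran from 8 bases for CDK10 to 609 for RBL2.

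Within OA, the members that fell were not at the same level in each library. Among the 30 that were more than 2-fold lower, OA replicate 3 was the highest OA library for 26, replicate 1 for 3 and replicate 2 for 1. The median ratio to the OA mean was 1.06 in replicate 3, 0.972 in replicate 1 and 0.978 in replicate 2. In the G2/M genes the same library was highest for 24 of 26, with a median ratio of 1.13, and in the S-phase targets for 22 of 28, with 1.05. OA replicate 3 was also the library with the highest hepatocyte marker sum given above (96.6 CPM); the part of that RNA in this difference was not tested. Without OA replicate 3, the log2 fold change was -4.32 for CCNA2, -4.27 for CCNB1, -4.01 for CDK1 and -4.05 for E2F2, and 68 members were called, CCNJ being lost.

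**Figure D5:**
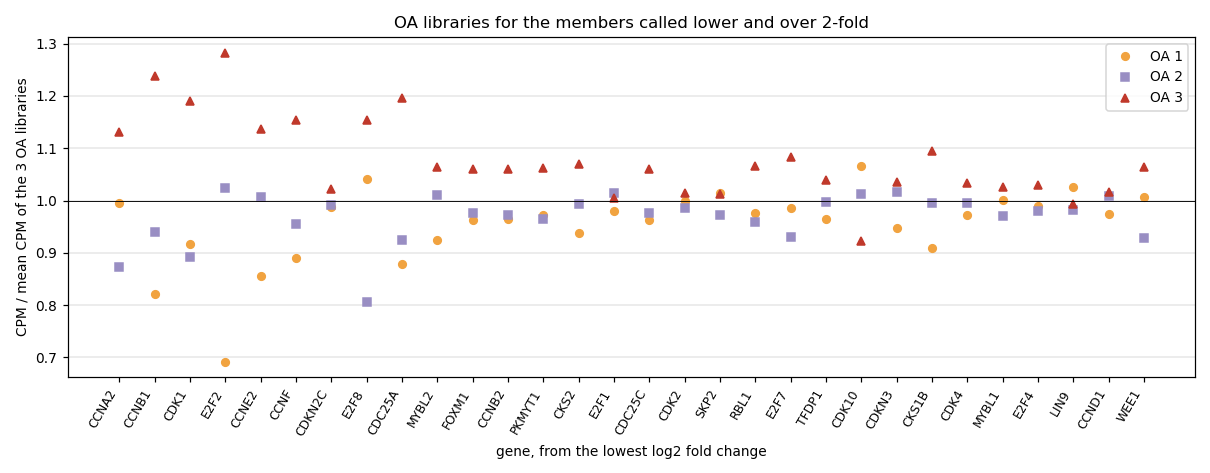
CPM in each OA library divided by the mean of the 3 OA libraries (vertical axis, no unit) for the 30 members more than 2-fold lower in OA, ordered from the lowest log2 fold change. The triangles of OA replicate 3 are highest for 26 of the 30 genes.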

How the data were processed

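RNA was sequenced from 3 OA and 3 vehicle libraries of MCF-12A cells. Alignment by the authors was to hg38 with STAR 2.5. Multi-mapped and low-quality reads were left out, and featureCounts 1.5.1 gave the reads per gene. What the authors deposited are these raw counts, without normalization, beside a gene length. Read length and layout are stated differently in different sources, and the OA dose is not used here. Its lowest total over the 6 libraries was 14 counts, so low genes had been removed by a rule not given in the sources used here.

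The fit was made with edgeR 4.0.16 (R 4.3.3): TMM scaling, filterByExpr (18 genes removed), and the two-sided quasi-likelihood test of OA against vehicle without covariates, Benjamini-Hochberg adjusted, at a false discovery rate of 0.01. The likelihood ratio test of edgeR, which the study used, was run as an alternative. CPM are TMM-scaled. CPM per kb divide them by the table's gene length. The SE is the size of the log2 fold change divided by the square root of F, with a median of 0.0529 over genes. Libraries of a group differed beyond counting noise (lowest chi-square per degree of freedom 2.73). Shares within families were compared by an exact two-sided permutation test.

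The members, role groups and lists were chosen with earlier results of these data known. Named were CCNA2, E2F1 and CDKN1C; per role group the 4 members with the smallest p and 1 CPM or more on average where higher; members that moved against the majority of their group; members that did not pass; and the 3 genes with the smallest p of each related list. A gene that this rule takes is not reported here. Other members were named, to account for all, after their values were seen.

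The steps were tested on simulated data with 200 genes changed and 14782 fitted. Recovered for the simulated comparison of OA with vehicle were 32 of 50 genes at 1.25-fold, 45 at 1.5-fold, 46 at 2-fold and 50 at 4-fold, with 3 false calls. In the real data 84.5% of tested genes were called, far more than were changed in the simulation. Its false calls therefore do not cover calls that depend on the scaling. Promoter sequences came from RefSeq (GRCh38.p14), with up to 12 start windows per gene. Alternatives were RLE, upper quartile and library totals scaling, no filter or at least 1 CPM in 3 libraries, DESeq2 1.42.0, limma-voom (limma 3.58.1), the likelihood ratio test, a replicate block, omission of each library, and a false discovery rate of 0.05.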

Additional observations from a re-analysis of the deposited data

How the results depend on the processing

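Of the 76 members, 57 kept their call and direction in each of the 16 alternatives in which they were tested, and 19 did not. Upper quartile scaling and library totals only accounted for every reversal. With upper quartile scaling the log2 fold change was 0.091 for RB1, 0.193 for CDK13, 0.0547 for CCNYL1 and 0.171 for CDK14. With library totals only it was 0.149 for RB1, 0.0234 for CCNL1, 0.252 for CDK13, 0.113 for CCNYL1, 0.229 for CDK14 and 0.187 for CDK5. These scalings shifted all genes alike: the median over all genes was 0.262 with upper quartile scaling and 0.320 with library totals only, the median over members -0.405 and -0.347, and the genes more than 2-fold lower numbered 1187 and 1060, in place of 1815. Omission of single libraries changed the calls of CDKN1B, CCNH, CCNI, CCNJ and CCNT2 among members. With the filter of at least 1 CPM in 3 libraries, CDK7 and CCNI2 were removed, so CCNI2 had no call there. Both are counted among the 57. With a replicate block, 69 members were called and none changed. Same-numbered libraries did not deviate together (correlations of 0.0807, 0.0132 and -0.0255), so no shared replicate effect was seen. With 3 libraries per group, this cannot settle whether same-numbered libraries were prepared together. OA replicates 1 and 2 correlated best with their own number and replicate 3 did not (0.0965 with vehicle replicate 2). CDKN1C, CCNI2 and CDK7 are limited by counts under 100.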
